A study of Rattus norvegicus with 8 samples.

Results

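The microRNA miR-21 was described in rat bone next to titanium implants. Its members were the rows of the deposited miRNA table named rno-miR-21 with any arm suffix, which gave 2 rows, rno-miR-21-5p and rno-miR-21-3p, of 974 rows in all and of 604 rows with the rno- prefix of catalogued rat miRNAs. Both groups were male Wistar rats, 12 to 13 weeks old, that carried titanium root-form implants in both femoral shafts. The hyperlipidemic rats had received a high-fat diet and the normal rats a normal diet for 8 weeks. Bone within 1 mm of the implant was taken 10 days after implantation, and small RNA was sequenced in 4 hyperlipidemic and 4 normal libraries. The labels do not tie a library to 1 rat, so p-values measure the spread between libraries. No group without an implant was analysed here, so the diets were compared at the implant only. The comparison asks which miRNAs of peri-implant bone differ with a high-fat diet.

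A miRNA hairpin is cut into a duplex, and as a rule one strand, the guide, is loaded into an Argonaute protein while the other is degraded. The guide of miR-21 is the 5p arm, and its seed, bases 2 to 8, pairs with target mRNAs. MiR-21-5p is among the most abundant miRNAs of many mammalian cells. It is induced by STAT3 and AP-1 in injured, inflamed and fibrotic tissue, and its targets in human and mouse cells include the tumour suppressor Pdcd4 and the signalling inhibitor Spry1. In mouse bone it is known for promoting osteoclast formation through Pdcd4, and in cultured mesenchymal stem cells for promoting osteoblast differentiation.

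Both mature sequences and the hairpin were taken from RefSeq (GRCr8), to show the seeds and the pairing of the arms. The Mir21 hairpin lies on the minus strand at chr10:71902600-71902691 of GRCr8, while the submitters' processing notes name Rnor_6.0. No other gene of the reference table overlaps it, and its neighbours there are Tubd1 and Vmp1, of which Vmp1, known as the gene beside and partly overlapping the miR-21 transcript, is on the same strand. Capitals mark the seed in the mature arms and both arms in the hairpin.
rno-miR-21-5p: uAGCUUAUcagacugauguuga
rno-miR-21-3p: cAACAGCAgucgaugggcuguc
Mir21 hairpin: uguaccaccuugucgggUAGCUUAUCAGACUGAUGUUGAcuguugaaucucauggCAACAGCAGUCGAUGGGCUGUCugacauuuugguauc
Each arm is 22 bases long, and 16 bases separate them in a hairpin of 92. In the predicted minimum free energy fold (-42.6 kcal/mol) 19 of the 22 bases of the 5p arm pair with the 3p arm, including all 7 of its seed. For 544 of the 604 rno- miRNAs the reference had a mature sequence, and none of these shared the seed of either arm, nor its bases 2 to 7. Both arms lie in 1 hairpin, and no other member of a seed family was found in the sequences compared. The rno- miRNAs without a reference sequence were not compared.

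The 5p arm was one of the most abundant miRNAs of implant-adjacent bone in both diets, and all of its hyperlipidemic values lay under all of its normal values, but the difference did not pass the test over all miRNAs. Values are in reads per 1000000 on the scale of the rno- class (RPM), so each is relative to the other rno- miRNAs of its library. MiR-21-5p stood at 30732, 40177, 30294 and 43717 RPM in hyperlipidemic replicates 1 to 4 and at 44232, 62494, 70641 and 99031 RPM in normal replicates 1 to 4. The groups came close to each other: hyperlipidemic replicate 4 lay just under normal replicate 1, and the normal libraries spread more widely. The mean was 36230 RPM with an SD of 6760 under the high-fat diet and 69100 RPM with an SD of 22806 under the normal diet (n = 4 each). The fitted log2 fold, hyperlipidemic over normal, was -0.89 (SE 0.28, 95% interval -1.52 to -0.26; unadjusted p = 0.0107 and Benjamini-Hochberg adjusted p = 0.153 over 696 miRNAs, by limma on log2(RPM + 0.475)). Of the 696 miRNAs tested 5, or 0.718%, passed an adjusted p of 0.05, 0 of them lower in hyperlipidemic bone and 0 with the rno- prefix. Limma with voom weights on recovered rno- reads also called 0. The count changed with other settings, given at the end, and some rno- miRNAs passed when that class was tested alone. By unadjusted limma p under 0.05 there were 76 lower miRNAs, or 10.9% of all tested, and 50 lower rno- miRNAs, or 12.6% of 396. A p as low as that of miR-21-5p or lower was found for 6.47% of all tested and 4.55% of rno- miRNAs. Groups without overlap, with hyperlipidemic libraries lower, were found for 63 of all tested miRNAs, or 9.05%, and for 42 rno- miRNAs, or 10.6%. In bulk bone, fewer cells of a type and less RNA per cell cannot be told apart.

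**Figure D1:**
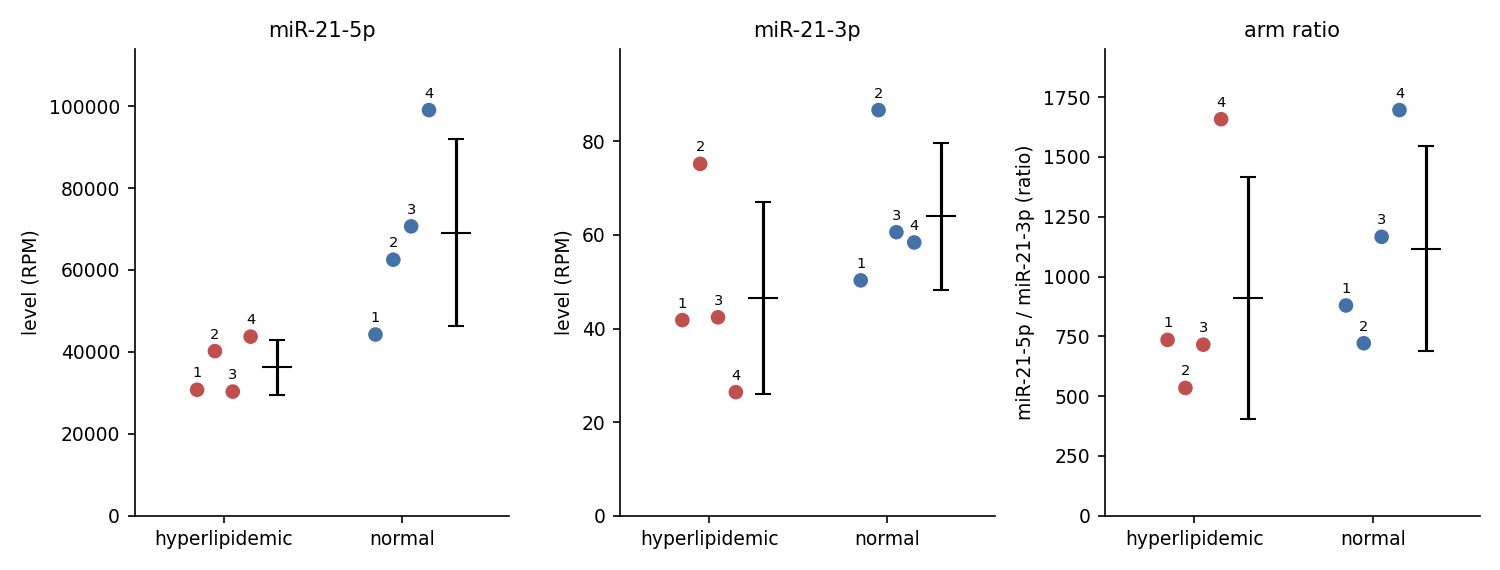
Level of miR-21-5p and miR-21-3p in reads per 1000000 on the scale of the rno- class (RPM) and their ratio, by diet. Points are single libraries numbered by replicate, and the black bar is the mean with the SD (n = 4). The 5p arm spans 30294 to 43717 RPM in hyperlipidemic and 44232 to 99031 RPM in normal libraries, while the 3p arm and the ratio overlap between the diets.

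Recovered reads are not scaled for depth, and in these the diets overlapped in miR-21-5p. The 5p value rested on 147819, 126595, 80083 and 145939 recovered reads in hyperlipidemic replicates 1 to 4 and on 77361, 87242, 69991 and 154337 in normal replicates 1 to 4. The totals to which the rno- values are scaled were about 4810000, 3150000, 2640000 and 3340000 reads in the hyperlipidemic and 1750000, 1400000, 991000 and 1560000 reads in the normal replicates, with no overlap. The part of this difference in depth in the result was not tested. In the authors' deposited table miR-21-5p has a fold of 0.532 (log2 -0.91, p = 0.033, adjusted p = 0.315) and the call "no change".

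Of all rno- signal, miR-21-5p made up a larger share in normal bone. Its share was 3.43%, 4.51%, 3.33% and 4.93% in hyperlipidemic replicates 1 to 4 and 4.98%, 7.02%, 8.27% and 11.4% in normal replicates 1 to 4. Normal replicates 3 and 4 held the highest shares. The exact 95% binomial intervals of hyperlipidemic replicate 4 (4.91% to 4.96%) and normal replicate 1 (4.95% to 5.02%) overlapped at their ends, and this pair was not tested. The means were 4.05% ± 0.794 and 7.91% ± 2.67 (± SD, 4 libraries per diet). The exact two-sided permutation p was 0.0286, the smallest that 4 against 4 libraries can give, and 0.129 after adjustment over 9 measures of this kind. At least 6 of the 9 measures would have to reach that smallest p for any to pass. Without normal replicates 3 and 4, left out after seeing the data, the share differed by -1.95 percentage points in place of -3.86.

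By rank, miR-21-5p came ahead of miR-144-3p, miR-451-5p and miR-142-5p in normal replicates 3 and 4 and in none of the other 6 libraries. It had rank 5 among the rno- miRNAs in hyperlipidemic replicates 1, 2 and 3 and in normal replicate 1, rank 4 in hyperlipidemic replicate 4 and normal replicate 2, and rank 1 in normal replicates 3 and 4. Wherever it was not first, the miRNAs above it came from the same few: the red-cell miRNAs miR-144-3p and miR-451-5p, and both arms of miR-142, which is found across leukocytes. The highest other miRNA was miR-144-3p at 176520 RPM in hyperlipidemic replicate 1, so that miR-21-5p was at 0.174 of it. In normal replicate 4 the next miRNA was miR-99a-5p at 44331 RPM, and miR-21-5p was 2.23 times as high.

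By its mean over all libraries (52665 RPM) miR-21-5p had rank 4, between miR-451-5p (59580 RPM) and miR-142-3p (41609 RPM). Neither neighbour kept its place in every library. MiR-451-5p was above miR-21-5p in 6 libraries of 8 and miR-142-3p in 4 of 8. MiR-26a-5p (27757 RPM) and miR-99a-5p (26694 RPM) were below it in all 8 libraries, miR-99a-5p only narrowly in hyperlipidemic replicate 1 (30588 RPM). Adapter ligation can favour some miRNAs over others, so the order between miRNAs carries a bias that the order between libraries does not.

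The summed erythroid and leukocyte markers were at their lowest where miR-21-5p was highest, which holds for their abundant rows and not for every row. The 5 erythroid rows (miR-144, miR-451 and miR-486) held 27.7%, 23.1%, 33.1% and 19.2% of the rno- signal in hyperlipidemic replicates 1 to 4 and 20.2%, 17.9%, 8.95% and 7.77% in normal replicates 1 to 4. The 4 leukocyte rows (miR-142 and miR-223) held 14.8% to 20% in hyperlipidemic libraries and 18.0%, 20.2%, 9.34% and 6.08% in normal replicates 1 to 4. Normal replicates 3 and 4 thus stood apart from the other 6 libraries in both sums, and none of the 9 rows was at 0 in any library. The sums are carried by miR-144-3p, miR-451-5p, both arms of miR-142 and miR-223-3p, all with a log2 fold above 0. The remaining rows had a log2 fold below 0, at -0.14 for miR-486 and miR-144-5p, -0.17 for miR-451-3p and -0.91 for miR-223-5p. MiR-486, also a red-cell miRNA, was highest in normal replicate 4 (16264 RPM, against 5910 to 9407 RPM in hyperlipidemic libraries), and miR-223-5p was highest in normal replicate 3 (153 RPM). Mature lymphocyte markers (miR-150 and miR-342, 4 rows) held 0.326% to 0.426% in hyperlipidemic and 0.252% to 0.468% in normal libraries. That sum is carried by miR-150-5p and miR-342-3p, each with a log2 fold of 0.12. Their other arms had log2 folds below 0, at -0.86 for miR-150-3p and -0.99 for miR-342-5p. Mesenchymal markers (miR-199a and miR-214, 4 rows, of which 1 was at 0 in some library) held 2.49% to 5.58% in hyperlipidemic and 3.36% to 7.11% in normal libraries. The mesenchymal sum is carried by miR-199a-5p and miR-199a-3p, with log2 folds of -0.85 and -0.14. The other hairpin went the opposite way, with miR-214-3p at 733 and 426 RPM on average and a log2 fold of 0.72. Muscle markers (10 rows, 3 at 0 in some library) were low and scattered, at 0.0203% to 0.483% and 0.0429% to 0.344%. No marker row passed the test over all miRNAs.

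**Figure D2:**
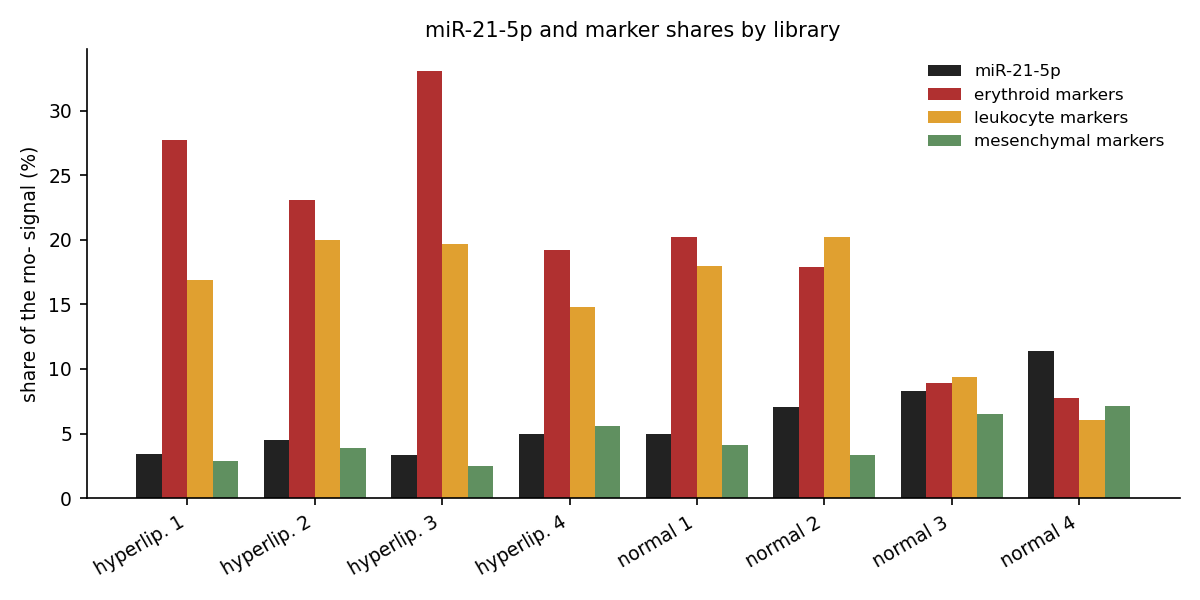
Share of the summed rno- signal in percent held by miR-21-5p, the erythroid, the leukocyte and the mesenchymal markers, 1 group of bars per library. Normal replicates 3 and 4 have the highest miR-21-5p bars (8.27% and 11.4%) and the lowest erythroid (8.95% and 7.77%) and leukocyte bars (9.34% and 6.08%).

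With the erythroid rows taken out of the total and the leukocyte rows left in it, the diets did not overlap in miR-21-5p. Its share of the remaining rno- signal was 4.74%, 5.86%, 4.98% and 6.10% in hyperlipidemic replicates 1 to 4 and 6.24%, 8.55%, 9.08% and 12.3% in normal replicates 1 to 4. The log2 fold on that scale was -0.71 (limma adjusted p = 0.203). With median-of-ratios factors, which moved the median log2 fold of all tested miRNAs from -0.10 to 0.11 and that of rno- miRNAs from -0.20 to 0.00, the log2 fold of miR-21-5p was -0.68 (limma adjusted p = 0.257). On that scale hyperlipidemic replicate 4 (40701) and normal replicate 1 (40623) crossed, so that the groups overlapped. Without normal replicates 3 and 4 the log2 fold was -0.56 (limma adjusted p = 0.466), at an unadjusted p of 0.0547. Part of the size of the fold thus moved with these libraries, and the part of blood cells in it was not tested further.

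Ratios within a library do not depend on scaling. Against the summed erythroid markers miR-21-5p stood at ratios of 0.124, 0.196, 0.101 and 0.256 in hyperlipidemic replicates 1 to 4 and at 0.247, 0.393, 0.924 and 1.46 in normal replicates 1 to 4. The log2 ratio was lower by 1.93 on average in hyperlipidemic libraries, with an overlap between hyperlipidemic replicate 4 and normal replicate 1 (exact permutation p = 0.0571, adjusted p = 0.129). Against the leukocyte markers the mean log2 ratio was -2.15 ± 0.41 with the high-fat and -0.66 ± 1.27 with the normal diet, and against the lymphocyte markers 3.44 ± 0.34 and 4.44 ± 0.72 (± SD over 4 libraries), both with an exact permutation p of 0.0571 and an adjusted p of 0.129. Without normal replicates 3 and 4 these differences were -0.98 for erythroid, -0.46 for leukocyte and -0.39 for lymphocyte markers, so each rests in large part on those libraries.

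Set against mesenchymal markers and the let-7 family, miR-21-5p had mean log2 differences of -0.41 and -0.45 over all libraries and of -0.48 and -0.57 without normal replicates 3 and 4, and differences between marker sets were not tested. Its ratio to the mesenchymal markers was 1.2, 1.16, 1.34 and 0.884 in hyperlipidemic replicates 1 to 4 and 1.2, 2.09, 1.27 and 1.6 in normal replicates 1 to 4, with an exact permutation p of 0.143 and an adjusted p of 0.257. Its ratio to the let-7 family, a large seed family of differentiated cells used here as a reference, lay between 0.722 and 0.773 in the hyperlipidemic libraries and between 0.709 and 1.48 in the normal ones (exact permutation p = 0.171, adjusted p = 0.257). The hyperlipidemic libraries were nearly equal in that ratio, and normal replicates 1 and 3 lay near them. Against muscle markers the ratio ran from 7.1 to 164 and from 24.1 to 265 (exact permutation p = 0.257, adjusted p = 0.289). A p that misses the threshold does not show that these ratios were alike.

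**Figure D3:**
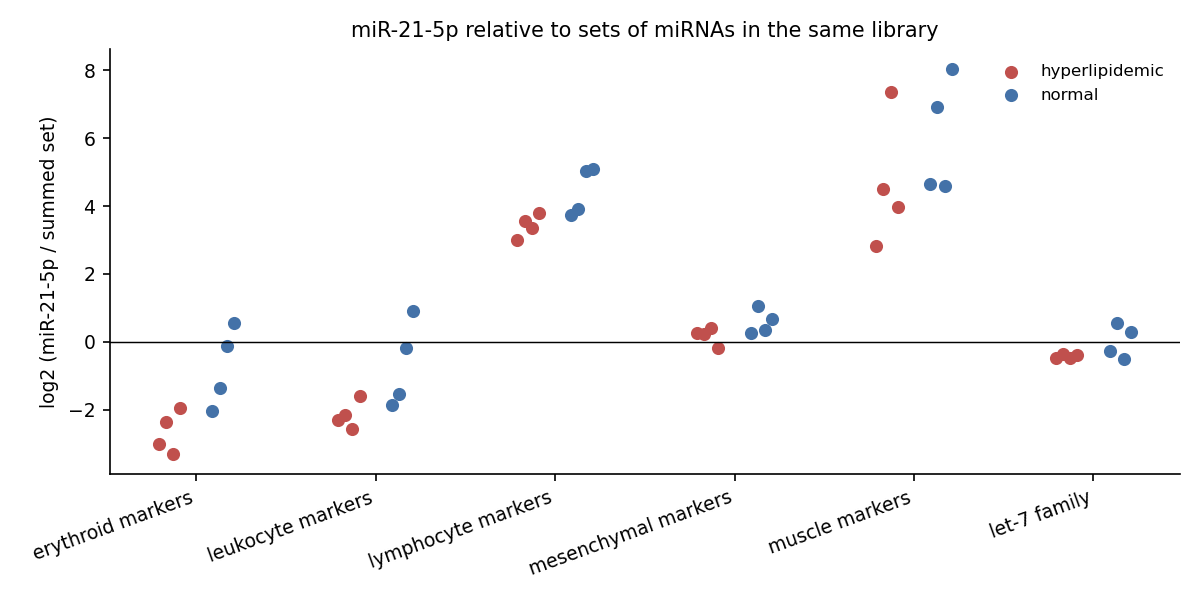
Log2 ratio of miR-21-5p to the summed level of 5 marker sets and of the let-7 family in the same library. Each point is 1 library, red for hyperlipidemic and blue for normal. The mean difference between diets is -1.93 against erythroid, -1.49 against leukocyte and -0.41 against mesenchymal markers.

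The passenger arm, miR-21-3p, was low in every library and its diets overlapped. It stood at 41.8, 75.2, 42.4 and 26.4 RPM in hyperlipidemic replicates 1 to 4 and at 50.3, 86.7, 60.6 and 58.4 RPM in normal replicates 1 to 4. These values rest on 201, 237, 112 and 88 reads in the hyperlipidemic and on 88, 121, 60 and 91 reads in the normal libraries. Replicate 2 was the highest library in both diets, and the lowest was hyperlipidemic replicate 4. Means were 46.4 ± 20.6 and 64 ± 15.8 RPM (± SD of 4 libraries), with a log2 fold of -0.53 (SE 0.37, 95% interval -1.37 to 0.32, limma adjusted p = 0.441). The log2 fold was -0.29 without hyperlipidemic replicate 4, and -0.32 with median-of-ratios factors. In the authors' deposited table miR-21-3p has a fold of 0.698 (adjusted p = 0.58) and the call "no change".

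MiR-21-3p ranked between 181 and 246 among the rno- miRNAs of a library. In mean level (55.2 RPM) it stood beside miR-26b-3p (56.0 RPM) and miR-93-3p (55.2 RPM), also passenger arms, which exceeded it in 3 and 4 of the 8 libraries, so that this order is not fixed. Its share of the rno- signal was 0.00518% ± 0.00231 with the high-fat diet and 0.0073% ± 0.00173 with the normal diet (± SD of 4 libraries). The exact permutation p was 0.229 and the adjusted p 0.289.

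The 5p arm outnumbered the 3p arm by far in every library. The ratio of 5p to 3p was 735, 534, 715 and 1658 in hyperlipidemic replicates 1 to 4 and 879, 721, 1166 and 1696 in normal replicates 1 to 4, so that replicate 4 had the highest ratio in each diet and the diets overlapped. Of the reads of both arms, 99.81% to 99.94% were 5p. The mean log2 ratio was 9.69 ± 0.70 with the high-fat diet and 10.05 ± 0.54 with the normal diet (± SD of 4 libraries), at an exact permutation p of 0.4, also after adjustment, and without normal replicates 3 and 4 its difference turned from -0.36 to 0.05. Among 128 hairpins with both arms above 0 in every library, miR-21 had rank 5 by its mean log2 ratio of 5p to 3p (9.87, against a median of 1.86). Ahead of it were miR-451 (14.25), which is matured by Ago2 without Dicer, miR-26a (13.84), miR-100 (10.24) and miR-99a (10.10). In that median, hairpins with more 3p than 5p count as negative. By the size of the log2 ratio, whichever arm was higher, miR-21 had rank 8, against a median size of 4.75. Hairpins with an arm at 0 in any library were left out of both ranks. The 5p to 3p ratio of miR-21 varied about as much between libraries (SD 0.61 on the log2 scale over 8 libraries) as in the median hairpin (0.69).

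The arms were compared across libraries, since both come from 1 hairpin. On log2(RPM + 0.475) Pearson's r was 0.43 (exact permutation p = 0.277) and Spearman's rho 0.48 (exact permutation p = 0.243) over 8 libraries, with an adjusted p of 0.277 for both. Without normal replicates 3 and 4, the libraries farthest from the median of the 5p arm, r was 0.49 (exact permutation p = 0.297, n = 6). With 4 libraries per diet no value within a diet is given. A parallel course of the arms was not detectable with these libraries.

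**Figure D4:**
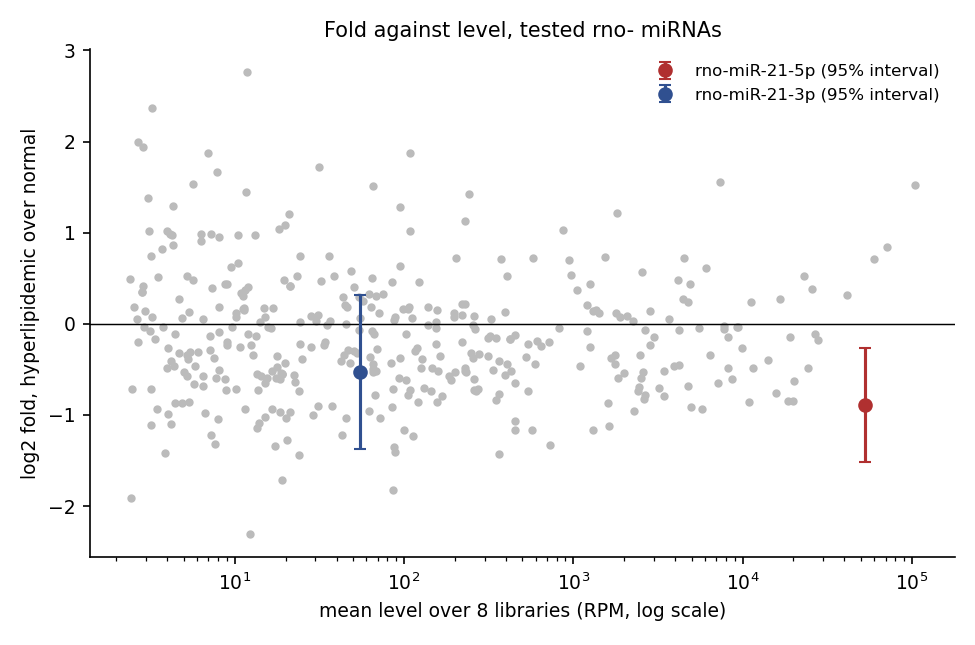
Log2 fold of hyperlipidemic over normal bone against the mean level (log axis, RPM) for the 396 tested rno- miRNAs in grey, with both arms of miR-21 in colour and their 95% intervals from limma. MiR-21-5p lies at -0.89 among the most abundant miRNAs, and miR-21-3p at -0.53 in the middle of the range with an interval across 0.

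The miRNAs whose profile over the 8 libraries was most like that of miR-21-5p were sought among the 174 other rno- miRNAs with a mean of at least 100 RPM. The likeness is Pearson's r on log2(RPM + 0.475) over 8 libraries, which share their scaling and depth, and it is given as a description. The 8 most alike had an r of 0.93 to 0.96, against a median of 0.41 over the candidates, and 14 candidates had an r above 0.9. They are shown to compare their seeds, in capitals, with that of miR-21-5p given above.
rno-miR-191a-5p: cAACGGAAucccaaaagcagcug
rno-miR-872-3p: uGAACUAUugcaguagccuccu
rno-miR-542-3p: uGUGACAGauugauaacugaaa
rno-miR-7a-5p: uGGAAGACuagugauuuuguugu
rno-miR-351-5p: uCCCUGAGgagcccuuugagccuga
rno-miR-186-5p: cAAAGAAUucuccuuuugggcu
rno-miR-199a-5p: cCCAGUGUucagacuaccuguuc
rno-miR-450b-5p: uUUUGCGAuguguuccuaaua
The 9 miRNAs, miR-21-5p included, have 9 distinct seeds. MiR-542-3p, miR-351-5p and miR-450b-5p lie within 4063 bases of the X chromosome (GRCr8) in 1 cluster, while the others lie on other chromosomes.

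All 8 lay below miR-21-5p in every library. Of them 7 were lower in hyperlipidemic libraries without overlap, beside 10.6% of rno- miRNAs. The choice by likeness to miR-21-5p, whose groups did not overlap, favours such a count, so it is no separate result. MiR-191a-5p, a broadly expressed miRNA (r = 0.96), averaged 12976 RPM (SD 983) with the high-fat and 24208 RPM (SD 7842) with the normal diet, without overlap, at a log2 fold of -0.85 (SE 0.26; limma adjusted p = 0.153). MiR-199a-5p, a mesenchymal miRNA (r = 0.94), averaged 13996 RPM (SD 4528) and 25911 RPM (SD 10666), with overlap, at the same fold of -0.85 (SE 0.34; limma adjusted p = 0.248), but its other arm miR-199a-3p had an r of only 0.47. Log2 folds of the 8 ran from -1.33 (miR-7a-5p) to -0.72 (miR-872-3p), and none passed (limma adjusted p from 0.108 to 0.248). Without normal replicates 3 and 4 the folds of miR-191a-5p, miR-199a-5p, miR-7a-5p, miR-351-5p and miR-872-3p were smaller by over 1.5 times, for example -0.51 for miR-191a-5p and -0.34 for miR-199a-5p. Since the values of miR-21-5p were lower in these hyperlipidemic libraries, without passing the test, miRNAs picked for a like profile were bound to lean the same way. With median-of-ratios factors the 8 had an r of 0.88 to 0.95, and 6 of them were again among the 8 most alike.

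The opposite course was that of miR-144-3p (r = -0.95), miR-32-5p (-0.92), miR-29c-3p (-0.87) and miR-142-5p (-0.86). MiR-144-3p, the most abundant miRNA of the table, stood at 176520, 126932, 195972 and 100036 RPM in hyperlipidemic replicates 1 to 4 and at 106613, 79518, 26794 and 28332 RPM in normal replicates 1 to 4. MiR-142-5p stood at 93032, 91471, 95236 and 72644 RPM and at 75472, 86784, 32016 and 26975 RPM. Both were lowest in normal replicates 3 and 4, where miR-21-5p was highest, and without those libraries their log2 folds were 0.65 in place of 1.52 and 0.11 in place of 0.84. The values of a library share 1 total, so that very abundant miRNAs and the rest are not independent. With median-of-ratios factors the r of miR-144-3p was -0.79 and none of the 4 was again among the 4 least alike.

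**Figure D5:**
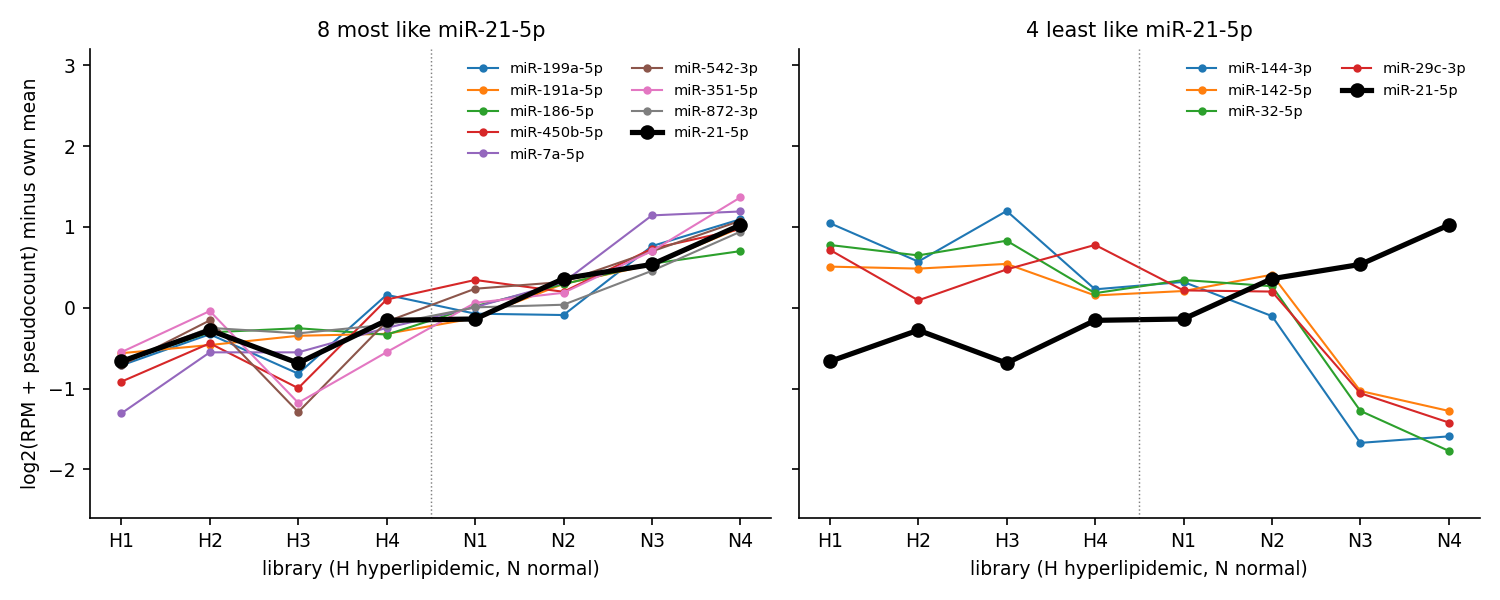
Log2(RPM + 0.475) of each miRNA minus its own mean over the 8 libraries, for miR-21-5p in black with the 8 miRNAs most like it (left) and the 4 least like it (right). Lines join the libraries only to make a profile visible, since replicates have no order; the left profiles (r of 0.93 and above) follow miR-21-5p, and the right ones are lowest in normal replicates 3 and 4.

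For miR-21-3p the closest profiles among 395 other tested rno- miRNAs were miR-18a-3p (r = 0.83) and miR-223-5p (0.73), and the 5p arm of its own hairpin came at rank 40 (0.43). MiR-18a-3p rests on 17.6 RPM on average, and in counts this sparse the likeness is a description only.

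Other miRNAs induced by inflammatory or injury signals had mostly lower relative levels in hyperlipidemic libraries too, without any passing the test. The list named 12 hairpins, which gave 23 rows, of which 22 were tested, 2 of them the arms of miR-21. Of the 20 others 17 had a log2 fold below 0 and 3 above it, with a median of -0.39, against 61.9% below 0 and a median of -0.20 over the 396 rno- miRNAs. Many of these rows are arms of the same or of related hairpins, so they are not independent. The list was also chosen with earlier results of these data known, so the count is a description. Unadjusted, 3 of the 20 had a p under 0.05, all lower, beside the 12.6% of rno- miRNAs given above, and 0 of the 20 passed over all miRNAs. With median-of-ratios factors 18 of all 22 were below 0 and the median was -0.21, when that of all rno- miRNAs was 0.00. MiR-21-5p alone made up 82.1% to 87.8% of the list's signal in a library.

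The next members by level were miR-146a-5p and miR-146b-5p, which NF-kB induces. MiR-146a-5p, a brake on Toll-like receptor signalling, stood at 4116, 3531, 3058 and 3858 RPM in hyperlipidemic replicates 1 to 4 and at 4569, 5801, 5401 and 7814 RPM in normal replicates 1 to 4. Its groups did not overlap, and the log2 fold was -0.68 (SE 0.23; limma adjusted p = 0.158). MiR-146b-5p, which has the same seed, averaged 1064 RPM (SD 142) and 2155 RPM (SD 1203), at a log2 fold of -0.87 (SE 0.36; limma adjusted p = 0.257), which was -0.54 without normal replicate 4 and -0.33 without normal replicates 3 and 4. MiR-221-3p, which AP-1 can induce, had a log2 fold of -0.36 (SE 0.30), which was -0.16 without normal replicate 3, -0.20 without hyperlipidemic replicate 1 and -0.07 without normal replicates 3 and 4. Its other arm, miR-221-5p, averaged 24.3 RPM in hyperlipidemic and 62.1 RPM in normal libraries, with overlap. The log2 fold of that arm was -1.22 (SE 0.46; limma adjusted p = 0.231). The log2 fold of miR-147, induced by Toll-like receptors in mouse macrophages, was -0.33 (SE 0.24) and that of miR-34a-5p, a p53 target, -0.32 (SE 0.40). The remaining tested members lay below miR-34a-5p in level (251 RPM on average), with log2 folds from -1.32 to 0.34.

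A list of miRNAs described in osteoclasts, which shares 8 rows with the former, went both ways. Of its 26 rows 21 were tested, and of the 19 beside miR-21 12, or 63.2%, had a log2 fold below 0 and 7 above it (median -0.32), close to the 61.9% below 0 among rno- miRNAs. None passed over all miRNAs, and at an unadjusted limma p under 0.05, 1 was lower (miR-223-5p) and 2 were higher (miR-29b-3p and miR-29c-3p), beside 12.6% lower and 3.03% higher among rno- miRNAs (10.9% and 6.9% of all tested). Among abundant members, miR-148a-3p, described as promoting osteoclast formation in human cells, had a log2 fold of -0.76 (SE 0.35, limma adjusted p = 0.29), and miR-223-3p, a myeloid miRNA, of 0.38 (SE 0.36, limma adjusted p = 0.573) that turned to -0.28 without normal replicates 3 and 4. MiR-29b-3p, which targets collagen transcripts, had a log2 fold of 1.56 (SE 0.65, limma adjusted p = 0.257), miR-29a-3p, of the same seed, of -0.03 (SE 0.20), and miR-125a-5p of -0.52 (SE 0.30). Without normal replicates 3 and 4 the log2 fold was 0.26 for miR-29b-3p, 0.31 for miR-29c-3p, -0.15 for miR-148a-3p and -0.09 for miR-125a-5p, so that these values rest in large part on those libraries. The share of miR-21-5p in this list's signal ran from 32.1% to 63.6%.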

How the data were processed

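Small RNA of bone was sequenced as 50-bp single-end reads after adapter ligation and selection of bands of 140 to 160 bp, per the labels' protocols. The tool bcl2fastq 1.8.4 and the build Rnor_6.0 are named in the submitters' processing notes. Aligner, miRNA reference and counting rule: not given in the sources used here. Each deposited signal value is named FPKM by the authors, but low rno- values were whole multiples of 1 step per library (100% of values up to 20 reads, within 0.1 read), so it is read here as reads per 1000000 (RPM) on a scale for the rno- or the predicted class, and no length enters. The rno- rows sum to between 854151 and 909193; the rest of that scale was not analysed here. The authors also deposited a ratio of the groups (fold), the log2 of this fold, raw and adjusted p-values and calls, per the file headers, by a test not given in the sources.

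Diets were compared with limma 3.58.1 under R 4.3.3, with a mean-variance trend, two-sided, on log2(RPM + 0.475), the median smallest value above 0. A miRNA was tested if above 0 in at least 4 libraries with a mean of at least 2.375 RPM, and p-values were adjusted (Benjamini-Hochberg) over the 696 tested, 396 of them rno-. The procedure was tested on simulated data. Shares and ratios were compared by exact permutation over libraries. Reads were recovered by dividing by the step. Binomial intervals are exact and cover counting error only. Hairpins were folded with RNAfold 2.7.2.

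Genes named were both arms, the 10 highest rno- miRNAs, 3 neighbours in level on each side, the most and least alike profiles and the highest members of 2 lists; the text names a part of these. The members and lists were chosen with earlier results of these data known.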

Additional observations from a re-analysis of the deposited data

How the results depend on the processing

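Under 20 other settings miR-21-5p kept a log2 fold below 0 (-1.09 to -0.56) and an adjusted p above 0.05 (0.0748 to 0.466), and miR-21-3p did so too (-0.79 to -0.29, 0.367 to 0.707). The closest to passing was miR-21-5p without normal replicate 1. Leaving out 1 library at a time gave -1.09 to -0.70 for the 5p and -0.79 to -0.29 for the 3p arm, and with the replicate number as a block the adjusted p was 0.188 and 0.468. The libraries share only a number (correlations of same-numbered deviations 0.19, -0.08, -0.02 and 0.15, the best for their own number in 2 of 4). By sign-flip in such pairs, whose smallest p is 0.125, the share of miR-21-5p (-3.86 percentage points) had an adjusted p of 0.188. Voom on recovered reads of rno- miRNAs gave -0.89 (adjusted p = 0.141).

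The number of miRNAs past the threshold, 5, was 10 and 12 with a pseudocount of 1 and 5 RPM, 0 with 1 read per class, 0 with a mean of at least 10 RPM, 3 among rno- miRNAs alone, 8 with median-of-ratios factors, 0 by voom on recovered reads and 0 with the replicate block. It ran from 0 to 13 when single libraries were left out, and was 0 without any 1 hyperlipidemic library. The cause was not tested. The log2 arm ratio turned to 0.05 without normal replicates 3 and 4. Of the 22 other miRNAs whose fold was followed, 434 of 440 alternatives kept direction and side of the threshold, but 16 of the 22 folds moved by over 1.5 times without normal replicates 3 and 4. MiR-34a-5p ran from -0.54 to 0.02 with single libraries left out, turning without hyperlipidemic replicate 1, and miR-223-3p to -0.28 without normal replicates 3 and 4. MiR-29a-3p, near 0 throughout, turned to 0.18 with median-of-ratios factors, 0.15 when rescaled without erythroid markers, 0.07 without hyperlipidemic replicate 2 and 0.00 without normal replicate 1 (from -0.15 to 0.07 with single libraries left out). The 60 to 237 reads behind miR-21-3p limit its precision.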
